A study of Mus musculus with 6 samples.

Results

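The genes described here are 34 enzymes, regulators and transport proteins of cholesterol and fatty acid synthesis, many of them targets of the sterol regulatory element-binding proteins (SREBPs). The rule that finds them is a list of symbols and uses no measured value, although the list was drawn up with earlier results of these data known. Every probe set annotated to a member's symbol alone was read. At least 1 such probe set was found for 33 of the 34 members, among 18193 genes on the array with one. Acat2, the cytosolic acetoacetyl-CoA thiolase, had none and is not analysed here. The 33 measured members had 78 probe sets, of which 71 passed the filter on low signal, and all 33 members had at least 1 that passed.

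Total RNA was measured on 6 Affymetrix arrays prepared from 2 immortalized lines of mouse embryonic fibroblasts, cultured connective tissue cells of the embryo. Every array came from cells that lacked PCAF (gene Kat2b, PCAF-/-), a histone acetyltransferase closely related to GCN5 (gene Kat2a). Per the labels, 3 arrays were PCAF-/-;GCN5-/- and 3 were PCAF-/-;GCN5+/-, all without further treatment, after puromycin selection and in serum-containing medium. The comparison addresses which genes depend on GCN5 in cells that already lack PCAF. The design text describes retroviruses that carried Cre recombinase, which excises the conditional GCN5 allele, or vector alone. The labels give a genotype but no virus, and since the design text gives both infections the genotype GCN5+/-, the labels' genotypes define the groups here. Infection and genotype cannot be told apart. For either genotype, line A gave duplicate RNAs (arrays A1 and A2) and line B, immortalized independently, gave 1 (array B). Each p-value therefore rests on 2 lines, and part of its error term is the technical spread of the duplicates.

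Signals are on a log2 scale, so a difference of -1 is a halving of the signal. Kat2a was read by 3 probe sets. The probe set 1422972_s_at gave 7.97, 7.85 and 7.75 in GCN5-/- arrays A1, A2 and B, against 9.31, 10.07 and 11.51 in the GCN5+/- arrays (log2 change -2.44 ± 0.37 SE, limma adjusted p = 0.00864). The probe set 1422971_at fell by 0.75 ± 0.13 (adjusted p = 0.0157), and 1426783_at did not pass the test (0.18 ± 0.16, adjusted p = 0.575). Without GCN5-/- array A2 or GCN5+/- array A1, 1422971_at missed the threshold (adjusted p = 0.075 and 0.0526). The sign of 1426783_at differed between the lines: GCN5-/- minus GCN5+/- was 0.47 in line A and -0.41 in line B. The files do not place the probe sets relative to the excised part of the gene. Array medians lay between 7.41 and 7.46.

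SREBPs are made as membrane proteins of the endoplasmic reticulum. When membrane sterol is low, the escort protein SCAP carries them to the Golgi, where proteases release the fragment that enters the nucleus and switches on sterol and fatty acid genes. When sterol is plentiful, INSIG proteins hold SCAP and SREBP back, and INSIG1 is itself an SREBP target. SREBP-2 (Srebf2) acts mainly on cholesterol synthesis and SREBP-1c (Srebf1) mainly on fatty acid synthesis. Cholesterol is built from acetyl-CoA through mevalonate to farnesyl diphosphate, then through squalene and lanosterol; fatty acids are built from the same acetyl-CoA and then lengthened and desaturated.

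Most of the pathway was lower in GCN5-/- cells. Of the 33 members, each read by its brightest probe set, 20 fell in GCN5-/- cells at a limma adjusted p under 0.05 and 0 rose. Among all 12626 named genes tested, 602 were called lower, which is 4.77%, and 643 were called higher, which is 5.09%. At an unadjusted p under 0.05, 26 members were lower and 1 was higher. The median log2 change over the members was -0.53, against 0.01 over all tested genes. With the duplicate RNAs of line A averaged first, so that each line counts as 1 pair, 11 members were called, and the calls of Insig1, Pmvk, Idi1, Tm7sf2, Nsdhl, Sc5d, Stard4, Acss2 and Scd1 were lost. With line as a random block the count was 12, and of those 9 genes Nsdhl and Sc5d held their calls while Lss lost its own. The count also moved with single arrays: it was 11 without GCN5-/- array A2 and 10 without GCN5+/- array A1. The 10 calls of Hmgcs1, Mvk, Mvd, Fdps, Fdft1, Sqle, Cyp51, Elovl6, Fads1 and Fads2 held when any 1 array of line A was left out. The other 10 calls, of Insig1, Pmvk, Idi1, Lss, Tm7sf2, Nsdhl, Sc5d, Stard4, Acss2 and Scd1, were all lost without GCN5+/- array A1, at adjusted p between 0.0649 for Nsdhl and 0.147 for Stard4. The same ones except Nsdhl were lost without GCN5-/- array A2, at adjusted p between 0.0615 for Insig1 and 0.136 for Stard4. The count of falls was 1 in a fit without a term for the cell line, in which the difference between the lines enters the error.

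The falls lay in all parts of the pathway but were unevenly spread over it. All 6 measured members of the mevalonate branch fell, with a median of -0.75. Of the 10 members of the sterol branch, 7 fell, with a median of -0.54. Of the 10 fatty acid members, 5 fell, with a median of -0.30. Of the 5 regulators 1 fell, and of the 2 transport members 1 fell. These branch counts were not tested against each other. All 3 GCN5-/- arrays were below all 3 GCN5+/- arrays for 21 of the 33 members, against 8.74% of all tested genes. In 26 of the 33, GCN5-/- was the lower array in each of the 3 matched pairs, against 24.1% of all tested genes. Pairs A1 and A2 join duplicate RNAs of line A by replicate number, so they are not independent comparisons.

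**Figure D1:**
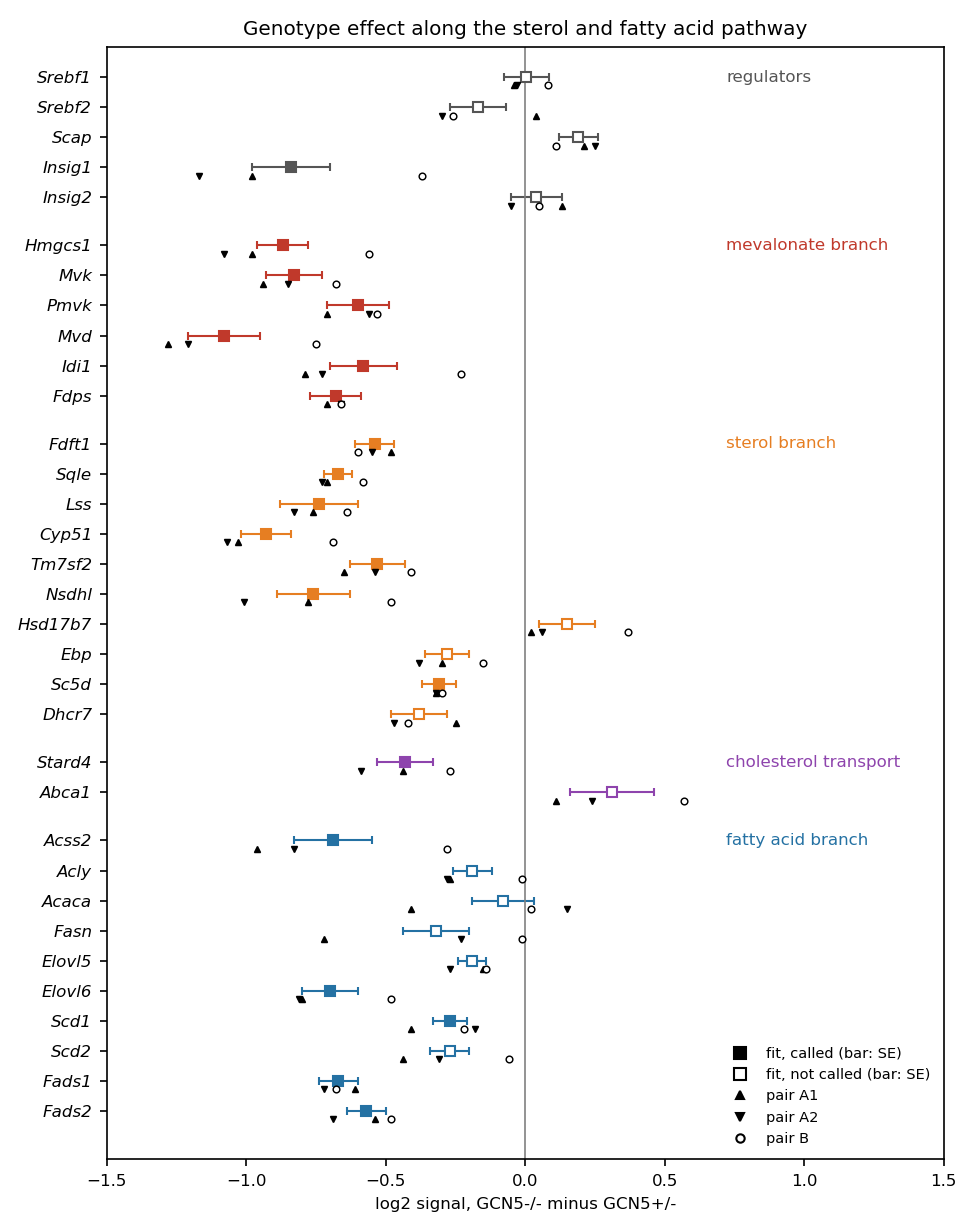
Log2 signal difference, GCN5-/- minus GCN5+/-, for the 33 measured members ordered along the pathway, with the fitted change and its standard error and the 3 matched pairs as points. All 6 mevalonate members lie left of 0 in every pair, whereas Srebf1 and Insig2 lie near 0.

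Of the 5 regulators, 4 were not called on their brightest probe set. Srebf1, the gene of SREBP-1, gave 10.77, 10.76 and 10.88 in GCN5-/- arrays A1, A2 and B, against 10.80, 10.79 and 10.79 in the GCN5+/- arrays. The groups overlapped within a narrow range, and the change was 0.004 ± 0.08 (adjusted p = 0.982). Srebf2, the gene of SREBP-2, gave 11.53, 11.15 and 11.52 in GCN5-/- arrays, against 11.50, 11.45 and 11.78 in GCN5+/- arrays. Its brightest probe set overlapped between the groups and did not pass the test (-0.17 ± 0.10, adjusted p = 0.36). A second Srebf2 probe set, 1426744_at, fell by 0.38 ± 0.09 (adjusted p = 0.0407), so the Srebf2 call depends on the probe set.

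Scap, the SREBP escort, gave 11.80, 11.93 and 12.17 in GCN5-/- arrays, against 11.60, 11.68 and 12.06 in GCN5+/- arrays. It was higher in each pair but did not pass the adjusted test (0.19 ± 0.07, adjusted p = 0.15), and it was the 1 member that was higher at an unadjusted p under 0.05. Insig1, which retains the SCAP and SREBP complex and is an SREBP target, gave 10.28, 10.16 and 9.78 in GCN5-/- arrays, against 11.26, 11.33 and 10.15 in GCN5+/- arrays. It was the only regulator whose brightest probe set was called: it fell by 0.84 ± 0.14 (adjusted p = 0.0125) to 55.8% of the GCN5+/- signal. The groups overlapped, because the GCN5+/- array of line B was as low as the GCN5-/- arrays of line A. Insig2, its paralog, gave 11.16, 11.21 and 10.98 in GCN5-/- arrays, against 11.03, 11.26 and 10.93 in GCN5+/- arrays, a change of 0.04 ± 0.09 (adjusted p = 0.819).

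In the mevalonate branch, Hmgcs1, the HMG-CoA synthase that makes the branch's first dedicated intermediate, gave 12.50, 12.38 and 12.68 in GCN5-/- arrays A1, A2 and B, against 13.48, 13.46 and 13.24 in the GCN5+/- arrays. The groups did not overlap, and the signal fell by 0.87 ± 0.09 (adjusted p = 0.00173) to 54.6% of the GCN5+/- level. All 5 of its 5 probe sets fell, by changes between -0.69 and -1.18. The largest change was that of the dimmest probe set, 1441536_at. Its GCN5-/- signals of 6.69, 6.60 and 6.46 lay below the filter level of 6.8. That probe set passed the filter through its GCN5+/- signals of 7.90, 7.87 and 7.51, so its change includes signals under that level. The other probe sets changed by -0.69 to -0.92. Mvk, mevalonate kinase, gave 10.64, 10.50 and 10.19 in GCN5-/- arrays, against 11.59, 11.35 and 10.88 in GCN5+/- arrays. It fell by 0.83 ± 0.10 (adjusted p = 0.00309) and was lower in line B than in line A in both genotypes.

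Mvd, the decarboxylase that yields isopentenyl diphosphate, fell furthest of the 33 members. It gave 9.48, 9.29 and 9.72 in GCN5-/- arrays, against 10.76, 10.50 and 10.47 in GCN5+/- arrays, and fell by 1.08 ± 0.13 (adjusted p = 0.00355) to 47.3% of the GCN5+/- signal. Fdps, farnesyl diphosphate synthase, gave 12.97, 12.73 and 12.77 in GCN5-/- arrays, against 13.68, 13.39 and 13.42 in GCN5+/- arrays. It fell by nearly the same amount in each pair (0.68 ± 0.09, adjusted p = 0.00432). The other two enzymes of the branch fell less: Pmvk, phosphomevalonate kinase, by 0.60 ± 0.11 (adjusted p = 0.019), and Idi1, the isopentenyl diphosphate isomerase, by 0.58 ± 0.12 (adjusted p = 0.0256).

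**Figure D2:**
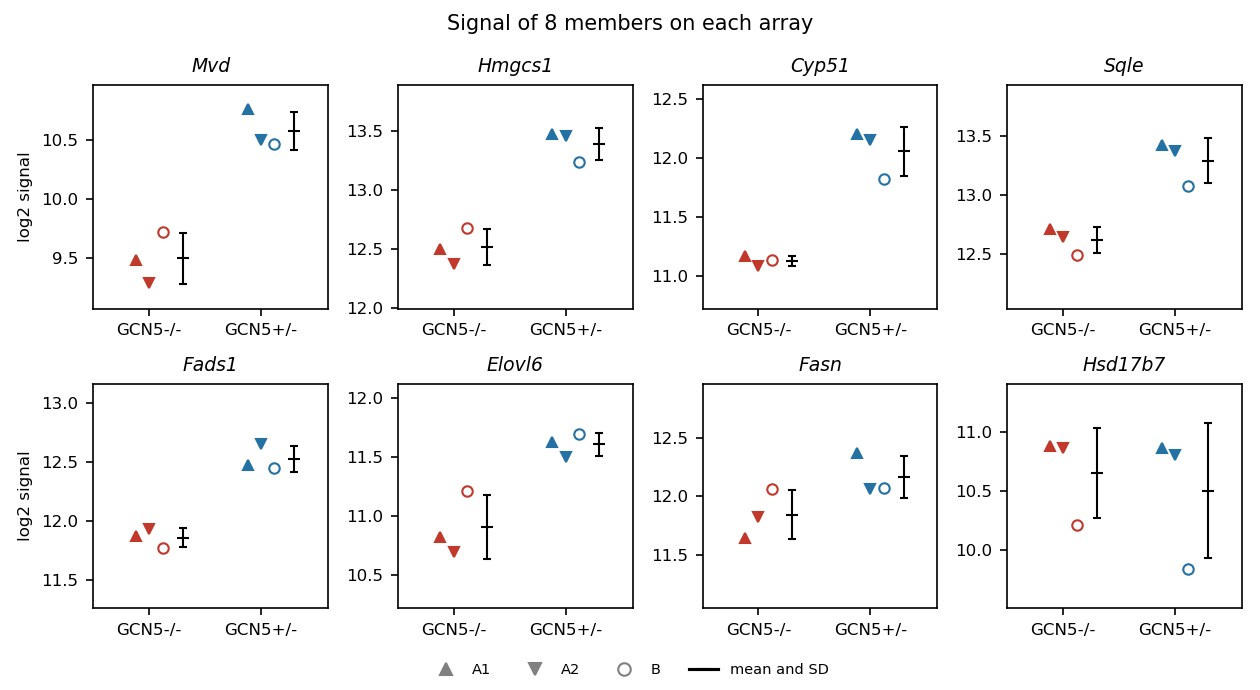
Log2 signal on each of the 6 arrays for 8 members, GCN5-/- left of GCN5+/-, with lines A and B marked. Mvd, Hmgcs1, Cyp51, Sqle, Fads1 and Elovl6 separate the genotypes in both lines, Fasn differs by -0.01 in line B, and Hsd17b7 follows the line more than the genotype.

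The promoters of members that fell are shown because SREBPs act there together with NF-Y, which reads CCAAT, and Sp1, which reads GGGCGG. RefSeq windows of 300 bases, 250 before and 50 after the gene start on GRCm38.p6, were found for 27 of the 34 members. In each sequence printed here, on the gene's own strand and 5′ to 3′, capitals mark matches to the sterol regulatory element core TCACNCCAC and to CCAAT on either strand, so ATTGG is CCAAT on the other strand. The element core stood in 1 of the 27 member windows, or 3.7%, that of Hmgcs1 at position -137. It stood in 1.05% of 10153 windows of tested genes and in 1.22% of 27025 windows genome-wide. CCAAT stood in 20 of 27, or 74.1%, against 38.8% of 10153 windows of tested genes. GGGCGG also stood in 20 of 27, against 63.5% of those of tested genes. The E-box CACGTG stood in 6 of 27, or 22.2%, against 10% of those of tested genes. CCAAT was in 12 of the 14 windows of called members and in 8 of the 13 others. Those 13 include Acat2, which was not measured. No window was found for the called members Fads1, Fdft1, Fdps, Scd1, Sqle and Stard4. A match describes letters in a window, not a bound site. The mevalonate examples are Hmgcs1, with the element core and 4 CCAAT matches, and Mvk, with 5 CCAAT matches and no element core.
Hmgcs1, chr13:119690101-119690400, plus strand: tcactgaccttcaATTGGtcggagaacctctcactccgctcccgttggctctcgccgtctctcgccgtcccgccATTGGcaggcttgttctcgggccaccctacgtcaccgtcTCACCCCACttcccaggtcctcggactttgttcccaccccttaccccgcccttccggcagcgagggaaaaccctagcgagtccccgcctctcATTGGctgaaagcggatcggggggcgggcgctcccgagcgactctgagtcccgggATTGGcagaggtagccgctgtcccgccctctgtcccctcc
Mvk, chr5:114444019-114444318, plus strand: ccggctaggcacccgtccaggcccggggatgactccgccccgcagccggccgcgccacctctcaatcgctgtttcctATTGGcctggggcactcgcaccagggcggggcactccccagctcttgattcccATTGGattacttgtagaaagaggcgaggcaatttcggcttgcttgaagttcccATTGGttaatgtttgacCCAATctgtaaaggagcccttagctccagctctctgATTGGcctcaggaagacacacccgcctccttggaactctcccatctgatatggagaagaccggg

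In the sterol branch, which turns farnesyl diphosphate into cholesterol, Sqle, the squalene epoxidase, had the smallest adjusted p of the members. It gave 12.71, 12.64 and 12.49 in GCN5-/- arrays A1, A2 and B, against 13.42, 13.37 and 13.07 in the GCN5+/- arrays, and fell by 0.67 ± 0.05 (adjusted p = 0.000473). Duplicates of line A lay close together in both genotypes. Cyp51, the lanosterol demethylase, gave 11.17, 11.08 and 11.13 in GCN5-/- arrays, against 12.20, 12.15 and 11.82 in GCN5+/- arrays. Its 3 GCN5-/- values were nearly level, and it fell by 0.93 ± 0.09 (adjusted p = 0.00116) to 52.5% of the GCN5+/- signal.

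Fdft1, squalene synthase, which commits farnesyl diphosphate to sterols, gave 11.75, 11.62 and 11.85 in GCN5-/- arrays, against 12.23, 12.17 and 12.45 in GCN5+/- arrays. The groups did not overlap and it fell by 0.54 ± 0.07 (adjusted p = 0.00342). Nsdhl, a dehydrogenase of the C4 demethylation step, gave 11.11, 10.72 and 11.35 in GCN5-/- arrays, against 11.89, 11.73 and 11.83 in GCN5+/- arrays. It fell by 0.76 ± 0.13 (adjusted p = 0.0126), with a wider spread among the GCN5-/- arrays than among the GCN5+/- arrays.

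The remaining called members were Lss, lanosterol synthase, which fell by 0.74 ± 0.14 (adjusted p = 0.0198), Tm7sf2, a sterol C14 reductase, by 0.53 ± 0.10 (adjusted p = 0.0211), and Sc5d, the sterol C5 desaturase, by 0.31 ± 0.06 (adjusted p = 0.0166). The other 2 Sc5d probe sets gave -0.03 and 0.02 and were not called. Ebp, a sterol isomerase, and Dhcr7, which reduces the last double bond to give cholesterol, were lower in each pair without passing the test (-0.28 ± 0.08, adjusted p = 0.0806, and -0.38 ± 0.10, adjusted p = 0.0571). With the pairs as a block, Dhcr7 passed (adjusted p = 0.0438). Hsd17b7, a reductase of the C4 demethylation step, was the only member of the branch with a positive value (0.15 ± 0.10, adjusted p = 0.397), with pair differences of 0.02, 0.06 and 0.37. The windows of Cyp51, with 1 CCAAT match, and Nsdhl, with 4, stand for the branch.
Cyp51, chr5:4104648-4104947, minus strand: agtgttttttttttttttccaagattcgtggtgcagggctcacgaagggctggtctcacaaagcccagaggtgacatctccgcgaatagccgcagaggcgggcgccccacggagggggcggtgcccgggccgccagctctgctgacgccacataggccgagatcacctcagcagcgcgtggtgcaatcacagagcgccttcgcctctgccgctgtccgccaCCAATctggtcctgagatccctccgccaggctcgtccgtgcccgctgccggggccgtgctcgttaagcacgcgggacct
Nsdhl, chrX:72918271-72918570, plus strand: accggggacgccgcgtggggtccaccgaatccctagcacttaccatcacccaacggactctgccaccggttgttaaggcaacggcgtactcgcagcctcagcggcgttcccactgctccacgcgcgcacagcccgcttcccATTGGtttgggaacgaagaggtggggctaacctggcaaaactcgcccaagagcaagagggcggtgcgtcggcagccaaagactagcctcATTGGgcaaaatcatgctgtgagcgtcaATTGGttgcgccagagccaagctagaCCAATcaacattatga

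The transport members differed in direction. Stard4, a cytosolic sterol carrier, gave 10.58, 10.34 and 10.76 in GCN5-/- arrays, against 11.02, 10.93 and 11.03 in GCN5+/- arrays, and fell by 0.43 ± 0.10 (adjusted p = 0.0365). Abca1, the cholesterol exporter, gave 10.52, 10.95 and 10.68 in GCN5-/- arrays, against 10.42, 10.71 and 10.10 in GCN5+/- arrays. It was higher in each pair, but the groups overlapped and it did not pass the test (0.31 ± 0.15, adjusted p = 0.246).

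In the fatty acid branch, the 5 members that fell were Fads1, Fads2, Elovl6, Acss2 and Scd1. Fads1, the delta-5 desaturase of polyunsaturated fatty acids, gave 11.87, 11.93 and 11.77 in GCN5-/- arrays A1, A2 and B, against 12.47, 12.65 and 12.45 in the GCN5+/- arrays. It fell by 0.67 ± 0.07 (adjusted p = 0.00138), with all pairs alike. Fads2, the delta-6 desaturase, gave 11.63, 11.55 and 11.60 in GCN5-/- arrays, against 12.16, 12.24 and 12.08 in GCN5+/- arrays, and fell by 0.57 ± 0.07 (adjusted p = 0.00307). Elovl6, which lengthens palmitate, gave 10.82, 10.69 and 11.21 in GCN5-/- arrays, against 11.62, 11.50 and 11.69 in GCN5+/- arrays, and fell by 0.70 ± 0.10 (adjusted p = 0.00563). For these 3 genes every GCN5-/- array was below every GCN5+/- array.

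Acss2, which makes acetyl-CoA from acetate, gave 8.66, 8.57 and 8.08 in GCN5-/- arrays, against 9.61, 9.39 and 8.36 in GCN5+/- arrays. It fell by 0.69 ± 0.14 (adjusted p = 0.0259), and as with Insig1 the groups overlapped because both genotypes were low in line B. Scd1, the stearoyl-CoA desaturase, fell by 0.27 ± 0.06 (adjusted p = 0.0336). Its paralog Scd2 missed the threshold on its brightest probe set at the same size (-0.27 ± 0.07, adjusted p = 0.0531), while its 2 dimmer probe sets fell by 0.39 and 0.50. By line, the brightest differed by -0.38 in line A, the mean of its 2 duplicate pairs, and by -0.06 in line B.

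The remaining members of the branch were not called either. Acly, the ATP citrate lyase, changed by -0.19 ± 0.07 (adjusted p = 0.174). Acaca, acetyl-CoA carboxylase, changed by -0.08 ± 0.11 (adjusted p = 0.722), with pair differences of -0.41, 0.15 and 0.02. Fasn, fatty acid synthase, changed by -0.32 ± 0.12 (adjusted p = 0.144), with pair differences of -0.72, -0.23 and -0.01. By line, Fasn differed by -0.48 in line A, the mean of its 2 duplicate pairs, and by -0.01 in line B. Elovl5, an elongase of polyunsaturated fatty acids, changed by -0.19 ± 0.05 (adjusted p = 0.0714). A p above the threshold does not show that these genes were level. The windows shown are those of Fads2 and Elovl6, the 2 members of the branch with the smallest p that had a window. Both genes fell, and their windows hold neither the element core nor CCAAT. That says only that those letters are not in these 300 bases.
Fads2, chr19:10101454-10101753, minus strand: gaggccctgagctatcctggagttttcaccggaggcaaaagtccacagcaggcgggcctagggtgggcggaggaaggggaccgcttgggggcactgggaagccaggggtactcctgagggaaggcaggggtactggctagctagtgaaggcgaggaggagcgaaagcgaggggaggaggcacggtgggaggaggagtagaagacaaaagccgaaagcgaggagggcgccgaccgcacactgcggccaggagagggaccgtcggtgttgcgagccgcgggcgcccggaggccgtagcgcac
Elovl6, chr3:129532136-129532435, plus strand: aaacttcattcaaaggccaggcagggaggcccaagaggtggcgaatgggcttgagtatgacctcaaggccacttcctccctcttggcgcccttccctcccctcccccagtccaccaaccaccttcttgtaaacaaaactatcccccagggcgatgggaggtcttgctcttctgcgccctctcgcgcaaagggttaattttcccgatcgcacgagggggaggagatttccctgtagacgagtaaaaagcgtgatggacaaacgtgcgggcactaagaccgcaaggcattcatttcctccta

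Over all 71 tested probe sets of the members, 39 fell and 0 rose, against 4.31% called lower of 27022 tested. Of the 23 members with several tested probe sets, 8 were called by every probe set, 8 by some and 7 by none. The other 10 had a single tested probe set. The 8 with a divided call were Srebf2, Idi1, Fdft1, Lss, Sc5d, Stard4, Elovl6 and Scd2. Fdft1 was called by 2 of 4 probe sets, with changes between -0.55 and 0.02, and Lss by 1 of 3, between -0.74 and -0.27. Stard4 was called by 2 of 3 probe sets and Elovl6 by 2 of 3, all negative. The second Idi1 probe set changed by -0.56 ± 0.16 (adjusted p = 0.0684). Among members not called, the sign differed between probe sets for Scap (-0.16 to 0.19), Insig2 (-0.02 to 0.04), Hsd17b7 (-0.04 to 0.15) and Acaca (-0.08 to 0.04).

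The matched pairs were then set side by side by line. The median change of the members was -0.52 in line A and -0.30 in line B, and in the fatty acid branch it was -0.43 in line A and -0.18 in line B. For 28 of the 33 members the difference was lower in line A than in line B, as it was for 46.4% of all tested genes. The difference between the lines was itself tested, and 0 of 33 members passed (limma's interaction term, lowest adjusted p = 0.228, for Hmgcs1), against 0.0396% of all tested genes. At an unadjusted p under 0.05 there were 7 members, against 9.64% of all tested genes. Those 7 were Insig1, Hmgcs1, Idi1, Cyp51, Acss2, Fasn and Scd2, each with the larger fall in line A. That test has 2 residual degrees of freedom, both from the line A duplicates, and line B has 1 pair. Kat2a itself ran the other way on 1422972_s_at, differing by -1.78 in line A but by -3.76 in line B (interaction adjusted p = 0.193).

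Insig1 differed by -0.98 and -1.17 in the line A pairs and by -0.37 in line B. Idi1 differed by -0.79 and -0.73 in line A and by -0.23 in line B, and Acss2 by -0.96, -0.83 and -0.28. Sc5d and Fdps, in contrast, had nearly equal differences in the pairs on their brightest probe sets. For Sc5d this did not hold on the dimmer probe sets. There, 1434520_at differed by -0.18 in line A and by 0.26 in line B, and 1424709_at by -0.10 and 0.26. Across the 33 members the differences of lines A and B had a Pearson r of 0.826, against 0.611 over all 12626 tested genes. Genes are not independent replicates, and the points share arrays, so r is a description.

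**Figure D3:**
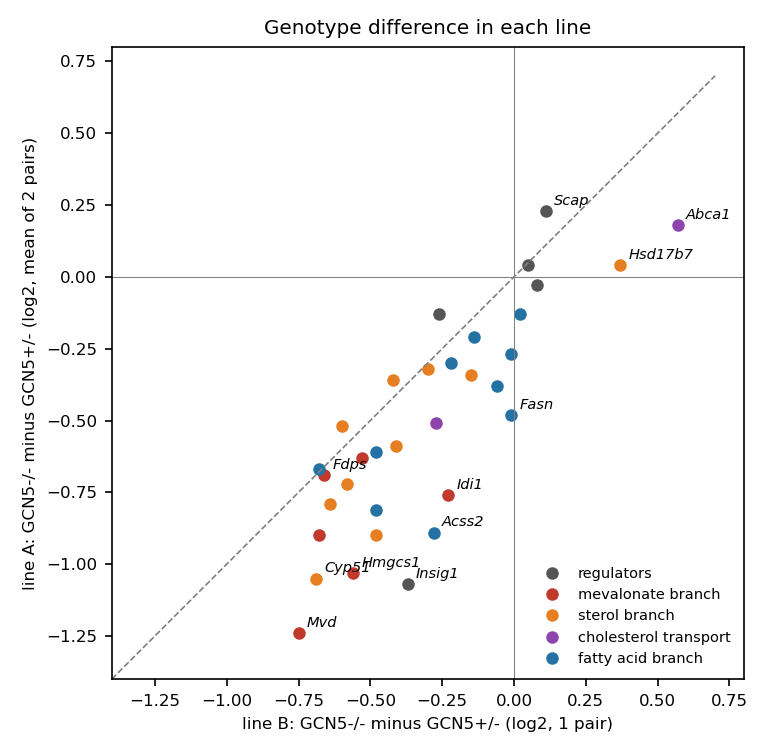
Log2 difference, GCN5-/- minus GCN5+/-, in line A (mean of its 2 pairs) against line B (1 pair) for the 33 measured members, coloured by branch, with the line of equal differences. Of the 33 members, 28 have the lower value in line A.

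Averaged over genotypes, the level of 7 of 33 members differed between lines, no larger a share than the 26.7% of all tested genes. In line A, 6 were higher: Acss2 by 0.84, Hsd17b7 by 0.82, Insig1 by 0.79, Dhcr7 by 0.62, Mvk by 0.49 and Sqle by 0.25. Scap was lower in line A, with a difference of -0.36. The count of 6 was 2 without the GCN5+/- array of line B.

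Genes of the same pathways outside the members were compared on lists whose content was chosen with earlier results of these data known. Of all tested genes, 4.77% were called lower and 5.09% higher, the shares to set beside the counts of these lists. Among 14 tested other genes of sterol synthesis and sensing, 1 fell (7.14%) and 1 rose, and the median was 0.002. Msmo1, the sterol C4 methyl oxidase, gave 12.37, 12.17 and 12.81 in GCN5-/- arrays, against 13.06, 12.94 and 13.27 in GCN5+/- arrays, and fell by 0.64 ± 0.08 (adjusted p = 0.00432). Erlin1, an endoplasmic reticulum protein that binds cholesterol, rose by 0.48 ± 0.08 (adjusted p = 0.0143).

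Among 12 tested oxysterol and LXR genes, 2 were called higher and 2 lower, and the median was -0.08. Of all tested genes, 5.09% were called higher and 4.77% lower. LXRs are nuclear receptors that respond to oxysterols by raising cholesterol export. Abcg1, a cholesterol exporter, gave 8.03, 8.22 and 8.22 in GCN5-/- arrays, against 7.28, 7.16 and 7.78 in GCN5+/- arrays, and rose by 0.75 ± 0.13 (adjusted p = 0.012). Ch25h, which makes an oxysterol from cholesterol, gave 10.75, 10.82 and 6.64 in GCN5-/- arrays, against 9.87, 10.29 and 5.58 in GCN5+/- arrays, a fitted change of 0.82 ± 0.14 (adjusted p = 0.0117). Cyp7b1, which hydroxylates oxysterols, gave 9.44, 9.73 and 5.38 in GCN5-/- arrays, against 10.45, 11.07 and 5.83 in GCN5+/- arrays, a fitted change of -0.94 ± 0.20 (adjusted p = 0.0303). Both line B arrays of Ch25h and of Cyp7b1 lay below the filter level of 6.8. Both genes passed the filter through line A alone, and the line B pair in each fitted change compares signals under that level. Pltp, the phospholipid transfer protein, fell by 0.48 ± 0.09 (adjusted p = 0.0189). Nr1h3, the gene of LXR alpha, changed by 0.13 ± 0.10 (adjusted p = 0.483).

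Among 21 tested other genes of fatty acid and glyceride synthesis, 5 fell (23.8%) and 2 rose, and the median was -0.04. The shares of all tested genes were 4.77% lower and 5.09% higher. Mid1ip1, which activates acetyl-CoA carboxylase, gave 11.63, 11.46 and 11.56 in GCN5-/- arrays, against 12.20, 12.23 and 12.22 in GCN5+/- arrays, and fell by 0.67 ± 0.07 (adjusted p = 0.00152). Acsl3, an acyl-CoA synthetase, fell by 0.67 ± 0.09 (adjusted p = 0.00449), while Acsl5 of the same family rose by 0.39 ± 0.07 (adjusted p = 0.0149). Tecr, the last reductase of the elongation cycle, fell by 0.29 ± 0.05 (adjusted p = 0.0127). Of the called genes named in these 3 lists, Msmo1, Mid1ip1 and Acsl3 held their calls when any 1 array of line A was left out. Without GCN5-/- array A2, the calls of Ch25h (adjusted p = 0.0561), Abcg1 (0.0573), Tecr (0.0701), Erlin1 (0.0716), Acsl5 (0.0736), Pltp (0.0876) and Cyp7b1 (0.107) were lost. All of these except Tecr were also lost without GCN5+/- array A1, at adjusted p between 0.0579 for Ch25h and 0.0896 for Pltp.

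**Figure D4:**
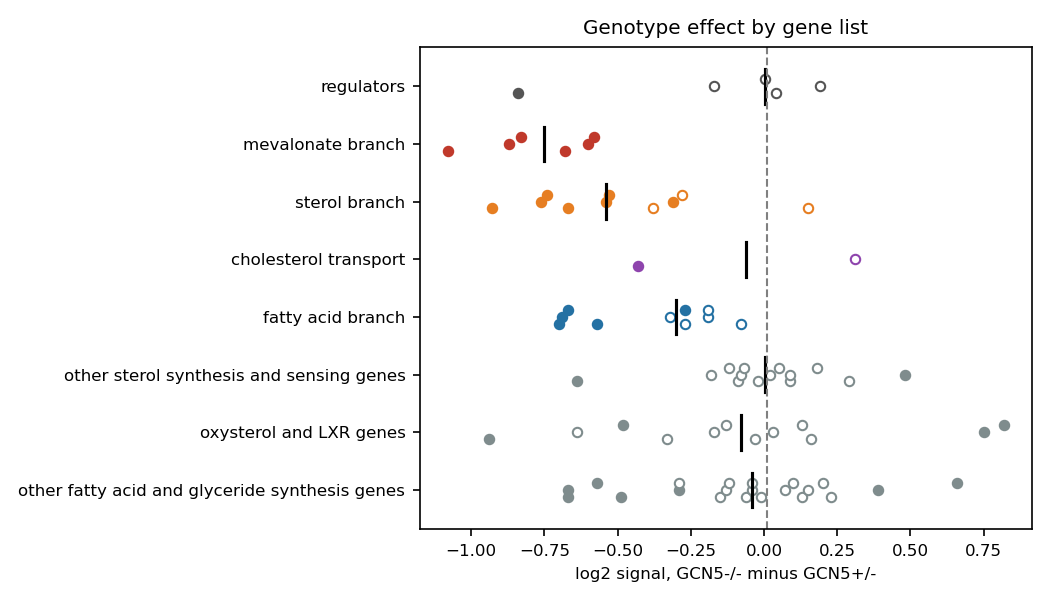
Log2 change, GCN5-/- minus GCN5+/-, of every tested gene in the 5 member groups and the 3 other pathway lists, with each list's median as a bar, called genes filled and the median of all tested genes (0.01) as a dashed line. The mevalonate median lies at -0.75, and the medians of the other pathway lists lie between -0.08 and 0.002.

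Cell type markers were read on the same arrays. All 9 fibroblast markers passed the level filter, which uses the mean over the 6 arrays. Thy1 passed through line B alone (8.60 in GCN5-/-, 9.54 in GCN5+/-). In line A it gave 6.21 and 6.02 in GCN5-/- arrays and 6.19 and 6.05 in GCN5+/- arrays, below the filter level of 6.8. The mean log2 signal of the 9 was 12.97 to 13.03 on GCN5-/- arrays, against 13.17 to 13.20 on GCN5+/- arrays. Of the 9, Col1a1, Col3a1, Pdgfra and Pdgfrb fell (44.4%), against 4.77% called lower of all tested genes. The mean of 6 adipocyte markers was 6.25 to 6.30 on GCN5-/- arrays, against 6.38 to 6.48 on GCN5+/- arrays. Adipoq, Lep and Cidec were below the filter, and Fabp4 fell by 0.54 ± 0.13 (adjusted p = 0.0447). Of 9 macrophage and leukocyte markers 5 passed the filter, while Ptprc, Adgre1, Itgam and Tyrobp did not. The mean of all 9 was 6.97 to 7.23 on GCN5-/- arrays, against 6.84 to 6.97 on GCN5+/- arrays, and Cd53 rose by 0.85 ± 0.09 (adjusted p = 0.00167). The other 4 above the filter were not called: Cd68 changed by 0.38, Csf1r by 0.36, Fcer1g by -0.03 and Laptm5 by -0.05. None of the 3 endothelial or 4 epithelial markers above the filter was called by limma at an adjusted p under 0.05, and their array means overlapped between the genotypes. The part of these differences in the members' falls was not tested. In RNA from whole cultures, fewer cells of a type and less RNA per cell cannot be told apart.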

How the data were processed

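Total RNA of 6 arrays was analysed, 3 per genotype. The authors deposited 1 log2 signal for each probe set. That the scale is log2 was inferred from the range of 3.13 to 15.2, because no label or header states it. MAS5 is named for 6 samples and Partek for 1, per the submitters' processing notes; background correction and normalization: not given in the sources used here. Near-equal array medians show scaling between arrays, which removes changes shared by most genes, and low signals compress fold changes. Depth does not apply to arrays; their number limits precision.

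Of 45101 probe sets, 64 controls were left out, and 27022 with a mean signal above the 40th percentile (6.8) were tested with limma 3.58.1 in R 4.3.3 (line as covariate, moderated variance with a trend, Benjamini-Hochberg over all tested), with 3 residual degrees of freedom. The script was tested on simulated data. Each gene took its brightest probe set annotated to it alone. Of the 45037 non-control probe sets, 34945 had 1 symbol, 932 several and 9160 are unnamed here. Per gene, an exact permutation test of 3 against 3 arrays could not go below 0.1.

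Lines pair the genotypes per the labels, and within line A the pairs A1 and A2 follow the replicate number. The deviations of same-labelled arrays from their genotype mean correlated at 0.637 (A1), 0.657 (A2) and 0.804 (B). The difference between the lines enters these values, so they cannot show whether A1 and A2 are rightly paired. Members and lists were chosen with earlier results of these data known. Array values are printed for the 5 regulators, both transport members and the 4 members of smallest p in each other branch. Other lists name up to 4 called genes by smallest p, plus Ch25h and Nr1h3. Alternatives changed the filter, normalization, line term, pairing and probe set choice, and left out each array in turn.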

Additional observations from a re-analysis of the deposited data

How the results depend on the processing

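The count of members that fell, 20 in the reported fit, was 21 with the replicate block, 20 without a level filter and after quantile normalization, 22 with a filter at the 60th percentile or the probe set of smallest p, and 16 without a variance trend. It was 11 with the line A duplicates averaged, 12 with a random block for the line, and 1 if the line term was dropped (Hmgcs1, adjusted p = 0.0489). Leaving out 1 array of line A at a time gave 10 to 15. Without either line B array the genotype change came from the line A duplicates alone, so no count is given. Of the 20 called members, 1 kept its call in all alternatives and 10 in all but the fit with no line term. The members' median lay between -0.46 and -0.54, and 0 members rose in any setting run. The genotype-by-line count was 0 wherever it was run. Members higher in line A numbered 2 to 7 and those higher in line B 1 to 2 when 1 array was left out, an alternative chosen after seeing the data. Values near 0 changed sign: Srebf1 was -0.004 after quantile normalization. With 1 array left out, Srebf1 ranged from -0.03 (without either line B array) to 0.02, Insig2 from -0.02 (without GCN5+/- A1) to 0.11, and Acaca from -0.17 to 0.03 (without GCN5-/- A1). The number of arrays, 3 per genotype from 2 lines, limits what could be called.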

Other observations

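Several oxysterol and lipid genes were far brighter in line A than in line B in both genotypes. Line A gave 9.44 to 9.73 for Cyp7b1 in GCN5-/- arrays and 10.45 to 11.07 in GCN5+/- arrays, while line B gave 5.38 in the GCN5-/- array and 5.83 in the GCN5+/- array. Apoe, an LXR target that carries cholesterol, gave 8.80, 9.63 and 6.75 in GCN5-/- arrays A1, A2 and B, against 9.68, 10.80 and 6.62 in the GCN5+/- arrays. For Cyp7b1, Ch25h and Apoe both line B signals lay below the filter level of 6.8, so no size or test of the line difference is given. Dgat2, which makes triglyceride and was above that level on every array, was higher in line A by 1.45 ± 0.16 log2 averaged over genotypes (limma adjusted p = 0.000591). It was also called higher in GCN5-/- cells (0.66 ± 0.15, limma adjusted p = 0.0367), a call that was weaker in 8 alternatives. Its pair differences were 0.90 (A1), 0.92 (A2) and 0.17 (B), so the average over genotypes hides part of the pattern.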
